A study of Mus musculus with 12 samples.

Results

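The 10 genes described here carry lipids between cells of the brain or take part in their release, remodelling and uptake. They are the lipoprotein transport genes Apoe, Clu, Apod, Abca1, Abcg1, Lpl, Lcat, Pltp, Vldlr and Lrp8. They were chosen by name, with earlier results of these data known. Each was read from every probe set (the group of array probes that reports 1 transcript) that the array annotation pairs with that gene alone. This gave 10 of 18193 measured genes and 26 of 45037 tested probe sets. Apoe and Lcat had 1 probe set each, Apod, Abcg1, Lpl and Pltp had 2, Abca1 and Lrp8 had 3, Clu had 4 and Vldlr had 6.

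The study hybridised 12 one-colour Affymetrix arrays, 3 for each of 4 groups of cultured mouse astrocytes, the star-shaped support cells of the brain. The astrocytes came from C57Bl/6j mice that express enhanced green fluorescent protein (eGFP), either neonatal (3 d in the sample labels) or adult (6 to 8 wks), and lay for 22 h on a section of mouse brain. The section was cut from an APdE9 transgenic mouse or from a wild-type C57Bl/6j littermate. APdE9 mice carry 2 transgenes, APPSwe (chimeric mouse/human amyloid precursor protein, Swedish form) and PS1-dE9 (a presenilin gene with an exon deleted), each driven by a mouse prion protein promoter, and they are a model of amyloid deposition. The 4 groups were thus neonatal cells on wild-type sections, neonatal cells on APdE9 sections, adult cells on wild-type sections and adult cells on APdE9 sections; the transgenes were in the section and not in the astrocytes that were picked. All cells were cultured, shaken to remove microglia, loosened from the section with trypsin and picked by suction under fluorescence, so all 4 groups share that handling. Isolation of the adult cells included Percoll and their medium a G5 supplement, while neonatal cells had neither and a different medium, so that culture method and age cannot be told apart. Samples were pooled (n = 3) before RNA was isolated, and the p-values therefore measure the spread between pools, which may be partly technical. The age of the mice that gave the sections is not given in the sources used here.

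The values are log2 signals that were deposited already centred, probe set by probe set. A value of 0 is the middle of the 12 arrays for that probe set, and 1 unit is a doubling if the log is to base 2, which the sources used here do not state; fold changes below take it as 2. The sources used here do not state the direction of the sign either, and higher and lower are as deposited. Levels of different genes cannot be set against each other, and whether a gene or an astrocyte marker is present at all cannot be read from such values. A gene was called higher or lower where its adjusted p in limma, fitted to all 18193 genes, was under 0.05. Array medians lay between -0.039 and 0.034.

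Apolipoprotein E, the product of Apoe, is the main protein of the lipoprotein particles that astrocytes secrete. The transporters ABCA1 and ABCG1 load cholesterol and phospholipid onto such particles, LCAT esterifies their cholesterol, and lipoprotein receptors, among them VLDLR and the product of Lrp8 (apolipoprotein E receptor 2), take them up or signal through them. Apoe, Abca1, Abcg1, Lpl and Pltp are known targets of the liver X receptors, which sense oxysterols. Apoe and Lpl are also expressed by microglia and macrophages.

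For Apoe, Lcat and Vldlr, whose response to the section differed between ages in each of the 12 fits without 1 array, the 250 bases that precede a transcript start in the RefSeq table of promoters (GRCm38.p6) are shown, 5′ to 3′ on the strand of the gene. The Apoe window is chr7:19699189-19699438 on the minus strand, the Lcat window is chr8:105943403-105943652 on the minus strand, and the Vldlr window is chr19:27216770-27217019 on the plus strand. Capitals mark a CCAAT box (here as its reverse complement, ATTGG) or a GC box (GGGCGG, here as CCGCCC). The Apoe window shown, whose start is at 19699188, has no capitals because none of the 9 motifs searched was found in it. The table holds 3 windows for Apoe, and another of them, with its start at 19698621, holds the TATA box letters (TATAAA) 96 bases before the start on the strand of the gene and 100 before it on the opposite strand. For Vldlr the table also holds another window, with its start at 27216484, in which none of the 9 motifs was found.
Apoe: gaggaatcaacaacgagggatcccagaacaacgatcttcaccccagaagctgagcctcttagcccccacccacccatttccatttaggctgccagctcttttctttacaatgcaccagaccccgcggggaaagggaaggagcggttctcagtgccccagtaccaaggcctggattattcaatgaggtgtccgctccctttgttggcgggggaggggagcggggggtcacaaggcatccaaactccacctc
Lcat: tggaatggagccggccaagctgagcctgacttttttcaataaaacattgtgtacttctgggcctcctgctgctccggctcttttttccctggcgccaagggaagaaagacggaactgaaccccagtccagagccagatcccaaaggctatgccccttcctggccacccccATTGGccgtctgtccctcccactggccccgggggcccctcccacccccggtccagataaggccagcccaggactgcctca
Vldlr: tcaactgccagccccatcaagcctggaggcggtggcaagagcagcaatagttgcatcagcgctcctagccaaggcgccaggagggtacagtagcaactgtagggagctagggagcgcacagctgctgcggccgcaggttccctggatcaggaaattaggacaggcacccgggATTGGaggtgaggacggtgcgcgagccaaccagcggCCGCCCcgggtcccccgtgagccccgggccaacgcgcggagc
The table held 7 of the 10 genes, with 12 start sites between them; Clu, Abcg1 and Lpl had no entry. The motifs were searched on both strands in the 250 bases before 32851 start sites. CCAAT lay in 33.8% of all windows and GGGCGG in 32.7%. The TATA box, TATAAA, lay in 12.4% of windows, the nuclear receptor half-site, AGGTCA, in 14% and the E-box, CACGTG, in 6.02%. The sterol response element, TCACNCCAC, was held by 1.05% of windows, the AP-1 site, TGANTCA, by 6.75% and the interferon response element by 2.98%. The strict liver X receptor element, a DR4 repeat of that half-site and so overlapping it, was held by 0.0152%. In Lcat the CCAAT box began 80 bases before the start, and in the Vldlr window shown it began 78 bases before, with the GC box at 42. None of the 12 windows held the liver X receptor, sterol response, interferon response or AP-1 motif.

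In adult cells Apoe, Apod, Abca1, Lcat, Pltp and Clu were higher on APdE9 than on wild-type sections, and Vldlr was lower, which made 7 of the 10 genes. In neonatal cells Abcg1 and Vldlr were higher and Lcat was lower. Of all genes tested, 17.7% passed in adult cells (8.26% higher and 9.4% lower) and 3.76% in neonatal cells (1.21% higher and 2.55% lower). Because the genes were chosen with earlier results known, shares of all genes are given here and below as background and not as a test. The median difference of the 10 genes was 0.43 in adult and -0.13 in neonatal cells, beside medians over all genes of 0.05 and 0.00. In fits that left out 1 array the number of the 10 genes called ran from 4 to 7 in adult cells, with the lowest value when adult APdE9 array 2 was left out, and from 1 to 3 in neonatal cells, with 1 when neonatal wild-type array 2 or neonatal APdE9 array 1 was left out. The effect of the section itself differed between ages for 6 of the 10 genes, with Apoe, Lcat, Apod, Pltp and Clu more positive in adult cells and Vldlr more negative, beside 10.1% of all genes (5.19% more positive and 4.88% more negative). That count was 3 to 5 with 1 array left out, and 3 without neonatal wild-type array 2, neonatal APdE9 array 1 or adult APdE9 array 2. The arrays were RNA of picked cells in bulk, so fewer cells of a type and less RNA per cell cannot be told apart.

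**Figure D1:**
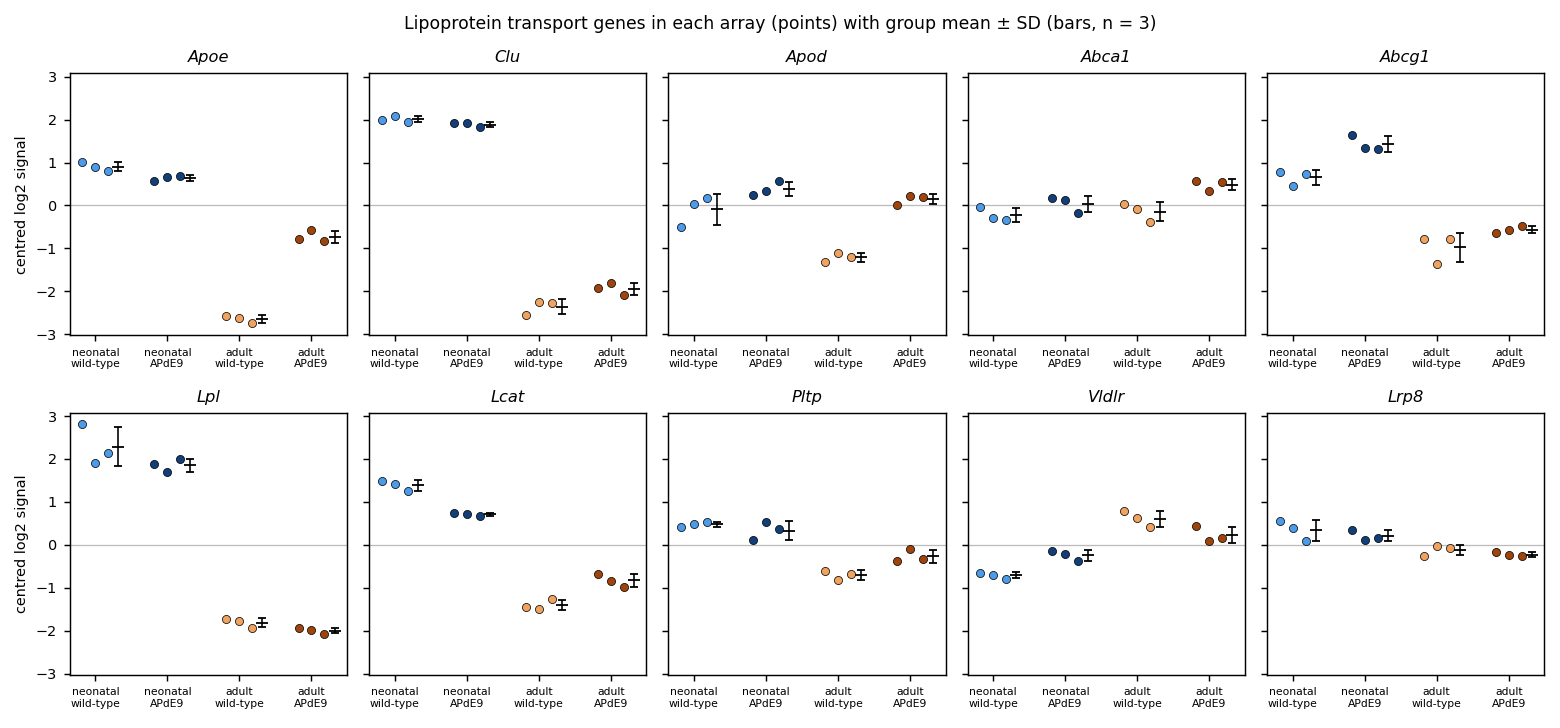
Centred log2 signal of each lipoprotein transport gene (vertical axis) in the 4 groups (horizontal axis); each point is 1 array and each bar shows the group mean ± SD (n = 3). Apoe lies between -2.75 and -2.58 in adult cells on wild-type sections and between -0.84 and -0.56 in adult cells on APdE9 sections, while neonatal values lie between 0.56 and 1.02.

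Apoe was at 1.02, 0.90 and 0.80 in neonatal cells on wild-type sections and at 0.56, 0.67 and 0.69 in neonatal cells on APdE9 sections. In adult cells it was at -2.58, -2.62 and -2.75 on wild-type sections and at -0.79, -0.56 and -0.84 on APdE9 sections. The 4 groups did not overlap, and adult cells on wild-type sections stood far below the rest. The group means ± SD (n = 3) were 0.90 ± 0.11, 0.64 ± 0.07, -2.65 ± 0.09 and -0.73 ± 0.15 in that order. In adult cells Apoe was 3.78-fold higher on APdE9 sections (log2 difference 1.92 ± 0.09 SE, 95% confidence interval 1.72 to 2.12, limma adjusted p = 1.05e-07). In neonatal cells the difference was -0.26 ± 0.09 and did not pass (adjusted p = 0.183). The section effects differed by 2.18 ± 0.13 between ages (adjusted p = 2.62e-06), and this held in each of the 12 fits without 1 array. Over 22 alternative fits, these among them, that difference passed each time but ran from 1.48 to 2.27. The section difference in adult cells passed in each of 23 alternative fits and ran from 1.35 to 1.97. Some of these fits could not move the Apoe differences. Apoe has 1 probe set and no missing value, and leaving out a neonatal array does not change the size of the adult difference. The fit without probe sets whose names end in _s_at, _x_at or _a_at did not hold Apoe.

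Apod encodes apolipoprotein D, a small lipocalin that binds lipids such as arachidonic acid. Its values in neonatal cells were -0.49, 0.03 and 0.18 on wild-type sections and 0.25, 0.33 and 0.56 on APdE9 sections. In adult cells they were -1.33, -1.11 and -1.19 on wild-type sections and 0.02, 0.22 and 0.21 on APdE9 sections. The lowest values were again those of adult cells on wild-type sections, and the other 3 groups lay close together. Apod was 2.56-fold higher on APdE9 sections in adult cells (1.36 ± 0.15, adjusted p = 6.71e-05), and both of its probe sets passed. In neonatal cells the difference was 0.47 ± 0.15 (adjusted p = 0.131). With the replicate number as a block it passed (adjusted p = 0.0256). The labels do not state such a pairing, which was taken from correlations in these same data. Between ages the section effect of Apod differed by 0.88 ± 0.22 (adjusted p = 0.0224), a call that ended without neonatal wild-type array 2 (0.82, adjusted p = 0.0639), neonatal APdE9 array 1 (0.0533) or 2 (0.054), adult wild-type array 1 (0.0537) or adult APdE9 array 2 (0.0587), and under quantile normalization (0.59, adjusted p = 0.172).

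Clu encodes clusterin, also called apolipoprotein J, which binds lipids and misfolded proteins outside the cell. It was at 1.98, 2.09 and 1.95 in neonatal cells on wild-type sections and at 1.91, 1.92 and 1.82 on APdE9 sections. Its adult values were -2.56, -2.26 and -2.27 on wild-type sections and -1.93, -1.81 and -2.09 on APdE9 sections. The gap between ages was many times the gap between sections. Clu was 1.34-fold higher on APdE9 sections in adult cells (0.42 ± 0.10, adjusted p = 0.0122), with its 4 probe sets between 0.40 and 0.45 and 3 of them called. Under quantile normalization the difference was 0.09 (adjusted p = 0.674), and without adult APdE9 array 2 it was 0.35 (adjusted p = 0.059). In neonatal cells it was -0.12 ± 0.10 (adjusted p = 0.697). The section effects differed by 0.54 ± 0.14 (adjusted p = 0.0316); the call ended under quantile normalization (0.21, adjusted p = 0.524) and when neonatal wild-type array 2, any neonatal APdE9 array, adult wild-type array 1, or adult APdE9 array 1 or 2 was left out, with adjusted p from 0.0508 to 0.0848.

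Abca1, the transporter that starts a lipoprotein particle by passing cholesterol and phospholipid to lipid-free apolipoprotein, was at -0.04, -0.29 and -0.34 in neonatal cells on wild-type sections and at 0.17, 0.12 and -0.17 on APdE9 sections. Adult cells had 0.03, -0.07 and -0.38 on wild-type sections and 0.58, 0.33 and 0.54 on APdE9 sections. Adult cells on APdE9 sections stood above the other 3 groups, which overlapped. Abca1 was 1.54-fold higher on APdE9 sections in adult cells (0.62 ± 0.13, adjusted p = 0.00569), and the call held in each of the 12 fits without 1 array. Of its 3 probe sets 2 passed, and 1421839_at did not (0.48, adjusted p = 0.133). The difference in neonatal cells was 0.26 ± 0.13 (adjusted p = 0.398). The section effects were not shown to differ between ages (0.36, 95% confidence interval -0.05 to 0.77, adjusted p = 0.279).

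Abcg1, which adds further cholesterol to particles already formed, was at 0.78, 0.46 and 0.73 in neonatal cells on wild-type sections and at 1.64, 1.35 and 1.31 on APdE9 sections. In adult cells it was at -0.78, -1.37 and -0.78 on wild-type sections and at -0.64, -0.58 and -0.48 on APdE9 sections. The groups did not overlap at either age, and the APdE9 group was the higher at both. Abcg1 was 1.71-fold higher on APdE9 sections in neonatal cells (0.78 ± 0.16, adjusted p = 0.0166), with 1 of its 2 probe sets called. That call ended without neonatal wild-type array 2 (0.68, adjusted p = 0.0929) or neonatal APdE9 array 1 (0.67, adjusted p = 0.071). In adult cells the difference was 0.41 ± 0.16 (adjusted p = 0.0948). The section effects were not shown to differ between ages (-0.37, 95% confidence interval -0.85 to 0.11, adjusted p = 0.358).

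Lcat encodes lecithin-cholesterol acyltransferase, the enzyme that turns the cholesterol of a particle into its storable ester. It was at 1.48, 1.42 and 1.24 in neonatal cells on wild-type sections and at 0.73, 0.72 and 0.68 on APdE9 sections. The adult values were -1.45, -1.50 and -1.26 on wild-type sections and -0.68, -0.84 and -0.98 on APdE9 sections. The APdE9 group was the lower at the neonatal age and the higher at the adult age, with no overlap at either. Lcat fell by 0.67 ± 0.10 on APdE9 sections in neonatal cells (1.59-fold lower, adjusted p = 0.00328) and rose by 0.57 ± 0.10 in adult cells (1.49-fold higher, adjusted p = 0.00157). For Lcat the difference of the section effects was 1.24 ± 0.14 (adjusted p = 0.000192). All 3 calls held in each of the 12 fits without 1 array.

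Pltp encodes phospholipid transfer protein, which moves phospholipid between particles. It was at 0.42, 0.48 and 0.54 in neonatal cells on wild-type sections and at 0.10, 0.52 and 0.37 on APdE9 sections. Adult cells had -0.60, -0.83 and -0.69 on wild-type sections and -0.38, -0.10 and -0.33 on APdE9 sections. The neonatal groups overlapped and the adult groups did not. Pltp was 1.35-fold higher on APdE9 sections in adult cells (0.44 ± 0.11, adjusted p = 0.0199). Of its 2 probe sets 1417963_at passed (0.52, adjusted p = 0.0131) and 1456424_s_at did not (0.35, adjusted p = 0.118). The call of the gene ended without adult wild-type array 2 (0.37, adjusted p = 0.0888) or adult APdE9 array 2 (0.35, adjusted p = 0.0904) and under quantile normalization (adjusted p = 0.0711). The neonatal difference was -0.15 ± 0.11 (adjusted p = 0.678). Between ages the section effect of Pltp differed by 0.58 ± 0.16 (adjusted p = 0.0408). Here too 1417963_at passed (adjusted p = 0.0235) and 1456424_s_at did not (adjusted p = 0.23). The call of the gene held without neonatal APdE9 array 2, adult wild-type array 1 or adult APdE9 array 1. It ended without any of the other 9 arrays, with adjusted p from 0.0541 to 0.105.

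Lpl, the lipoprotein lipase that releases fatty acids from triglyceride, did not pass for the section at either age. It was at 2.80, 1.91 and 2.14 in neonatal cells on wild-type sections and at 1.89, 1.69 and 1.99 on APdE9 sections, where the groups overlapped. Its adult values were -1.74, -1.79 and -1.94 on wild-type sections and -1.95, -1.97 and -2.08 on APdE9 sections, close together but without overlap. The differences were -0.43 (95% confidence interval -0.82 to -0.04, adjusted p = 0.268) and -0.18 (-0.57 to 0.21, adjusted p = 0.55).

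Vldlr, the very low density lipoprotein receptor, which binds apolipoprotein E and reelin, was at -0.65, -0.70 and -0.79 in neonatal cells on wild-type sections and at -0.13, -0.22 and -0.38 on APdE9 sections, as the mean of its 6 probe sets. In adult cells it was at 0.78, 0.61 and 0.41 on wild-type sections and at 0.44, 0.08 and 0.15 on APdE9 sections. It was thus the reverse of Lcat, higher on APdE9 sections in neonatal cells (0.47 ± 0.12, adjusted p = 0.0468) and lower in adult cells (-0.38 ± 0.12, adjusted p = 0.0427), where the groups overlapped. The section effects differed by -0.85 ± 0.17 (adjusted p = 0.0067), and this call held in each of the 12 fits without 1 array but ended with the median of the 6 probe sets (-0.57, adjusted p = 0.0875) and without probe sets whose names end in _s_at, _x_at or _a_at (-0.43, adjusted p = 0.159). The neonatal call ended without any neonatal array, adult wild-type array 2, or adult APdE9 array 2 or 3 (adjusted p 0.0553 to 0.159). The adult call ended without neonatal wild-type array 2, neonatal APdE9 array 2, adult wild-type array 1 or 2, or adult APdE9 array 2 or 3 (differences -0.38 to -0.29, adjusted p 0.0554 to 0.162). Both calls also ended with the median of the 6 probe sets, at 0.42 in neonatal cells (adjusted p = 0.137) and -0.15 in adult cells (adjusted p = 0.499). Without the probe sets with those name endings the values were 0.33 (adjusted p = 0.224) and -0.11 (adjusted p = 0.615). In a fit of only the arrays compared they missed the threshold at adjusted p 0.0603 and 0.0887, and with arrays 1 and 2 alone at 0.132 and 0.0682. The neonatal call ended with centring on array medians (adjusted p = 0.0575) and the adult call with quantile normalization (-0.35, adjusted p = 0.0914).

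The 6 Vldlr probe sets did not respond alike. Probe set 1434465_x_at was at -1.23, -1.44 and -1.32 in neonatal cells on wild-type sections and at -0.24, -0.39 and -0.61 on APdE9 sections, and in adult cells at 1.33, 1.18 and 1.04 on wild-type and at 0.47, 0.29 and 0.24 on APdE9 sections. The 4 groups did not overlap in it. Its differences were 0.92 ± 0.12 in neonatal cells (adjusted p = 0.00235 over 45037 probe sets) and -0.85 ± 0.12 in adult cells (adjusted p = 0.000498). The section effects differed by -1.77 ± 0.17 (adjusted p = 9.42e-05), and these 3 calls held in each of the 12 fits without 1 array. Probe set 1417900_a_at gave 0.88 ± 0.16 and -0.87 ± 0.16 (adjusted p = 0.018 and 0.00382); its neonatal call ended without neonatal wild-type array 2 or 3 or neonatal APdE9 array 1 or 2 (0.76 to 0.92, adjusted p 0.0618 to 0.0729). The other 4 probe sets ran from 0.05 to 0.52 in neonatal and from -0.23 to -0.05 in adult cells, and none passed for the section. Calls over all probe sets made up 2% in neonatal cells, 12.7% in adult cells and 6.73% for the difference of the section effects. The suffix _x_at marks a probe set whose probes may match other transcripts, and which transcripts of Vldlr each probe set reads is not stated in the sources used here.

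**Figure D2:**
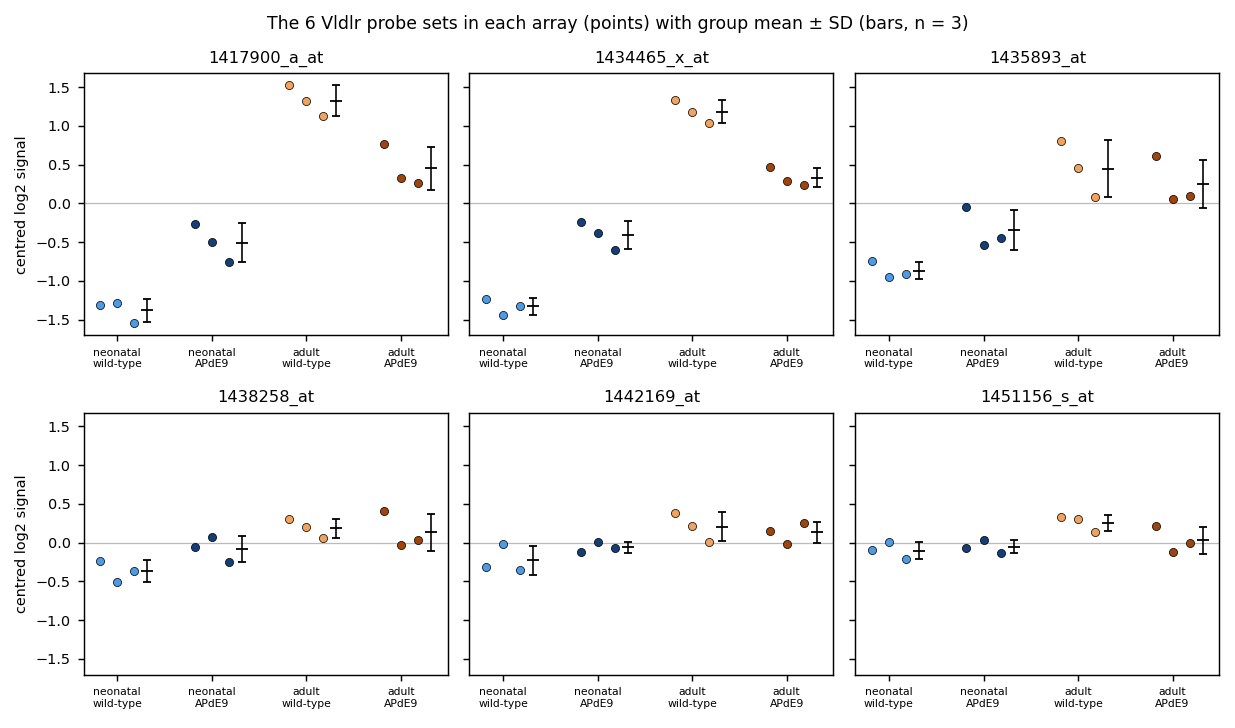
Centred log2 signal of each of the 6 Vldlr probe sets (vertical axis) in the 4 groups (horizontal axis); each point is 1 array and each bar shows the group mean ± SD (n = 3). In 1417900_a_at and 1434465_x_at the groups are apart, while in 1451156_s_at the values run only from -0.21 to 0.33.

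Lrp8, the reelin and apolipoprotein E receptor, was at 0.55, 0.39 and 0.08 in neonatal cells on wild-type sections and at 0.35, 0.11 and 0.17 on APdE9 sections. In adult cells it was at -0.27, -0.04 and -0.07 on wild-type sections and at -0.17, -0.25 and -0.27 on APdE9 sections. The section groups overlapped at both ages. The differences were -0.13 (95% confidence interval -0.39 to 0.13, adjusted p = 0.741) and -0.11 (-0.36 to 0.15, adjusted p = 0.594).

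**Figure D3:**
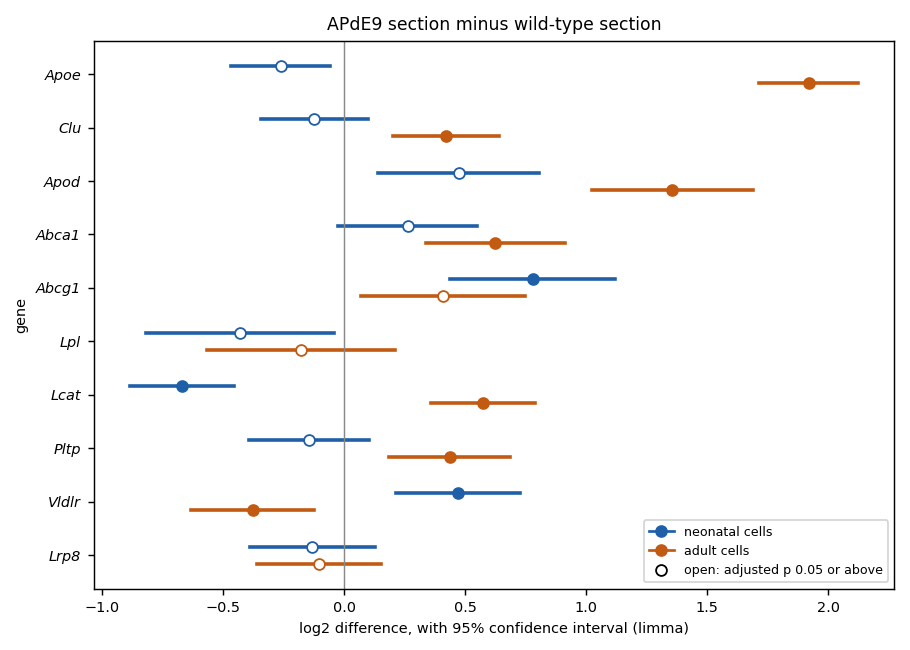
Log2 difference between APdE9 and wild-type sections (horizontal axis, bars are 95% confidence intervals from limma) for each gene (vertical axis) in neonatal and adult cells; open points had an adjusted p of 0.05 or above. Apoe in adult cells is farthest from 0 at 1.92, and Lcat and Vldlr pass on opposite sides of 0 at the 2 ages.

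Adult cells had lower signal than neonatal cells for most of these genes. On wild-type sections 8 of the 10 were lower and 1, Vldlr, was higher, beside 30.1% of all genes called (14.9% higher and 15.2% lower). On APdE9 sections 7 were lower and Vldlr and Abca1 were higher, beside 23.5% of all genes called (11.7% higher and 11.9% lower). The medians of the 10 genes were -1.41 and -0.99, and those of all genes 0.01 and 0.05. With 1 array left out, 9 of the 10 were called in every fit on wild-type sections and 7 to 9 on APdE9 sections, where 7 was reached without neonatal APdE9 array 3 or adult APdE9 array 3. Each age comparison uses the arrays of the section comparisons, so these values are not independent of those above, and the change of the age effect between sections is the same quantity as the change of the section effect between ages.

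Clu differed with age on wild-type sections by -4.37 ± 0.10 (20.7-fold lower in adult cells, adjusted p = 1.73e-11). On APdE9 sections it was at -3.83 ± 0.10 (14.2-fold lower, adjusted p = 1.51e-10). Lpl was at -4.11 ± 0.18 on wild-type sections (17.2-fold lower, adjusted p = 4.09e-09) and at -3.86 ± 0.18 on APdE9 sections (adjusted p = 1.03e-08). The section moved the age difference of Apoe by the 2.18 given above. Apoe was 11.7-fold lower in adult cells on wild-type sections (-3.55 ± 0.09, adjusted p = 6.4e-11) and 2.59-fold lower on APdE9 sections (-1.37 ± 0.09, adjusted p = 3.21e-07). Over 23 alternative fits, some of which could not move them, these Apoe differences ran from -3.61 to -2.78 and from -1.45 to -1.29. Lcat was 6.9-fold lower on wild-type sections (-2.79 ± 0.10, adjusted p = 6.92e-10) and 2.91-fold lower on APdE9 sections (-1.54 ± 0.10, adjusted p = 1.75e-07).

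Abcg1 was lower in adult cells on wild-type sections (-1.63 ± 0.16, adjusted p = 4.79e-06) and on APdE9 sections (-2.00 ± 0.16, adjusted p = 1.06e-06). Abca1, the other efflux transporter, was not: it was at 0.08 ± 0.13 on wild-type sections (adjusted p = 0.718) and higher in adult cells on APdE9 sections (0.44 ± 0.13, adjusted p = 0.0278). That last call ended without neonatal APdE9 array 3 (0.34, adjusted p = 0.112), adult APdE9 array 1 (0.40, adjusted p = 0.0898) or adult APdE9 array 3 (0.42, adjusted p = 0.077). Pltp was at -1.18 ± 0.11 and -0.60 ± 0.11 on the 2 kinds of section (adjusted p = 5.34e-06 and 0.00186). Apod was at -1.12 ± 0.15 on wild-type sections (adjusted p = 0.00011) and at -0.23 ± 0.15 on APdE9 sections (adjusted p = 0.315), where its probe sets 1416371_at and 1444564_at gave 0.16 and -0.63 and the latter passed, as did 16.4% of all probe sets.

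Vldlr was the only one of the 10 genes called higher in adult cells on both sections, by 1.31 ± 0.12 on wild-type (adjusted p = 2.57e-06) and by 0.47 ± 0.12 on APdE9 sections (adjusted p = 0.0114, and 0.0508 without neonatal APdE9 array 3). On wild-type sections its 6 probe sets all passed, beside 22.9% of all probe sets, at 0.36 to 2.71. Lrp8 was at -0.46 ± 0.12 on wild-type sections (adjusted p = 0.00947) and at -0.44 ± 0.12 on APdE9 sections (adjusted p = 0.0169), a call that ended without neonatal APdE9 array 1 (0.0708), adult APdE9 array 2 (0.0522) or adult APdE9 array 3 (0.0509). In its probe set 1421459_a_at the age difference was 0.01 and 0.25, while in the other 2 it lay between -0.89 and -0.52.

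**Figure D4:**
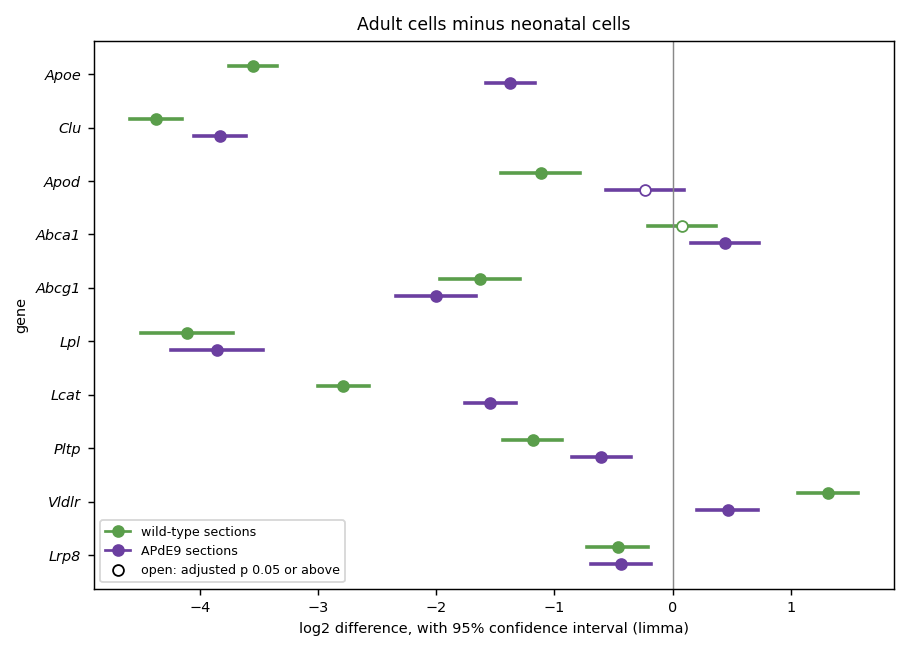
Log2 difference between adult and neonatal cells (horizontal axis, bars are 95% confidence intervals from limma) for each gene (vertical axis) on wild-type and APdE9 sections; open points had an adjusted p of 0.05 or above. Apoe moves from -3.55 on wild-type to -1.37 on APdE9 sections, while Lpl stays near -4 on both.

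Genes of 7 marker lists, astrocyte markers among them, were read for age as well. Their counts stand beside 14.9% of all genes higher and 15.2% lower in adult cells on wild-type sections. On APdE9 sections those shares were 11.7% and 11.9%. Of 17 measured microglia and macrophage markers 16 were lower in adult cells on each section, with medians of -3.77 and -3.63. On wild-type sections Ctss and C1qc were at -7.60 and -7.02, and 1 marker of the list, Tmem119, was higher, at 1.03. The mean of that list per array lay between 1.40 and 2.10 in neonatal arrays and between -2.27 and -1.48 in adult arrays. Of 15 astrocyte markers 12 were lower and 2 higher in adult cells on wild-type sections, and 10 were lower and 1 higher on APdE9 sections. Gfap was at -4.24 and -3.45 and S100b at 0.58 and 0.95. Of 9 fibroblast and mural cell markers 6 were higher and none lower in adult cells on wild-type sections, with Col1a1 at 4.06, while on APdE9 sections 2 were higher and 2 lower. Of 8 endothelial markers 3 were higher and 2 lower on wild-type sections (Esam 3.47, Slco1a4 -2.30), and 4 were higher and 1 lower on APdE9 sections. Of 7 ependymal and choroid plexus markers 4 were lower on wild-type and 3 on APdE9 sections, and none was higher. Of 11 oligodendrocyte markers 3 were lower and none higher on wild-type sections (Olig1 -4.00, Cnp -1.44), and 2 were higher and 2 lower on APdE9 sections. Of 11 neuron markers 3 were higher and 1 lower on wild-type sections, and 2 were higher and 2 lower on APdE9 sections. The levels behind these differences had been removed, and the part of any of these cell types or of astrocyte content in the age differences of the lipoprotein genes was not tested.

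Some of these markers also differed between sections. Their counts stand beside 8.26% of all genes higher and 9.4% lower in adult cells, and 1.21% and 2.55% in neonatal cells. In adult cells on APdE9 sections 6 of the 17 microglia and macrophage markers were higher and 1 lower (Ctss 3.53, Cd68 1.72, Tmem119 -0.85), and the list mean lay between -1.60 and -1.48 against -2.27 to -2.02 on wild-type sections. Of the 9 fibroblast and mural cell markers 5 were lower and 1 higher (Tagln -3.37, Col1a1 -1.79), with list means of -0.07 to 0.13 against 0.82 to 0.94. Of 11 oligodendrocyte markers 5 were higher and 1 lower (Mbp 1.78, Olig1 1.30), and of the 15 astrocyte markers 5 were higher and 4 lower. In neonatal cells on APdE9 sections 3 microglia markers were higher and none lower, and 6 astrocyte markers were lower and none higher (Aldoc -1.05, Gfap -1.02). Of the fibroblast and mural cell markers 3 were higher there and 1 lower (Lum 0.94, Rgs5 0.66), and of the oligodendrocyte markers 2 were higher and 2 lower, with Mbp higher by 1.80. Of the 8 endothelial markers 0 passed in limma for the section at either age (2 and 4 at an unadjusted p under 0.05 in neonatal and adult cells). In addition 2 of 11 neuron markers were lower in adult cells on APdE9 sections, and 1 of 7 ependymal and choroid plexus markers was lower in neonatal cells. The part of these cells in the section differences of Apoe, Apod, Lcat and Vldlr was not tested.

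The rest of the pathway was read from 8 lists of 94 genes, of which 83 had a single-gene probe set. In adult cells on APdE9 sections 15 of the 83 were higher and 26 lower, beside 8.26% and 9.4% of all genes. In neonatal cells 4 were higher and 20 lower, beside 1.21% and 2.55% of all genes. Cholesterol synthesis genes made up 17 of the 26 and 13 of the 20. The median differences of the 83 were -0.08 and -0.12. The section effect differed between ages for 15 of the 83, 13 more positive and 2 more negative in adult cells, beside 10.1% of all genes. The same shares of all genes apply to the counts of single lists below. Counts for age on wild-type sections stand beside 14.9% of all genes higher and 15.2% lower.

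Among 12 other apolipoproteins 1 was higher in neonatal and 1 in adult cells on APdE9 sections, with list medians of 0.02 and 0.20. Apoc2, the cofactor that activates lipoprotein lipase, was at 0.89, 1.23 and 0.72 in neonatal cells on wild-type sections and at 2.04, 2.13 and 1.81 on APdE9 sections. It was the gene that rose there, by 1.05 ± 0.18 (adjusted p = 0.00701), while in adult cells its difference was 0.35 (adjusted p = 0.213). With age it was lower by -2.33 ± 0.18 on wild-type sections (adjusted p = 6.82e-07), where 2 of the 12 were lower and none higher. Of 6 other lipases and lipase regulators 2 were higher in adult cells on APdE9 sections and none was lower. They were Angptl4, an inhibitor of lipoprotein lipase, and Lipa, the acid lipase of lysosomes. Angptl4 was at 0.09, -0.23 and 0.10 in adult cells on wild-type sections and at 1.27, 1.64 and 1.50 on APdE9 sections, a difference of 1.48 ± 0.19 (adjusted p = 0.000189). In neonatal cells Angptl4 was the 1 gene of the list that was higher on APdE9 sections, and none was lower. It was at -1.45, -1.13 and -0.78 on wild-type sections and at 0.24, -0.43 and -0.06 on APdE9 sections, a difference of 1.04 ± 0.19 (adjusted p = 0.0105), and the groups did not overlap. This call ended without neonatal wild-type array 2 (1.03, adjusted p = 0.0534), without the probe sets with the name endings above (0.78, adjusted p = 0.0605) and in a fit of only the arrays compared (adjusted p = 0.0575). The section effects on Angptl4 differed by 0.45 ± 0.27 between ages (adjusted p = 0.362), which missed the threshold. It was also higher in adult than in neonatal cells, by 1.10 and 1.55 on the 2 sections (adjusted p = 0.000708 and 6.16e-05), against the direction of Lpl.

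Of 11 other ABC lipid transporters 5 were higher and 1 lower in adult cells on APdE9 sections, with a list median of 0.31. Abca7, a phospholipid transporter, rose by 0.50 ± 0.11 (adjusted p = 0.00682) and Abca9 fell by 0.72 ± 0.13 (adjusted p = 0.00231). In neonatal cells 1 was lower and none higher, and the Abca7 difference was -0.37 (adjusted p = 0.101); its section effects differed by 0.87 ± 0.16 (adjusted p = 0.00397). Of 11 other lipoprotein receptors 1 was higher and 4 lower in adult cells, with a list median of -0.32, and 1 was higher and 2 lower in neonatal cells. Lrp10 rose by 0.59 (adjusted p = 0.00249), and Lrp4 and Scarb1, the HDL receptor, fell by 0.85 and 0.76 (adjusted p = 0.00209 and 6.55e-05). Sorl1, a sorting receptor that also binds the amyloid precursor protein, fell by 0.91 ± 0.09 in neonatal cells (adjusted p = 0.000252) and was far lower in adult than in neonatal cells on wild-type sections (-3.21 ± 0.09, adjusted p = 8.26e-11). Cd36, a scavenger receptor for lipoproteins, was lower with age by -4.89 ± 0.21 there (adjusted p = 3.35e-09), with 5 of the 11 lower and 1 higher. Of 5 measured receptor adaptors, chaperones and turnover genes 0 passed in neonatal cells in limma (1 at an unadjusted p under 0.05) and 1 was higher in adult cells.

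Of 11 genes of cholesterol storage and trafficking 4 were higher and 1 lower in adult cells on APdE9 sections, and 1 was higher and 1 lower in neonatal cells. Nceh1, which hydrolyses stored cholesterol ester, was at -1.22, -0.88 and -1.18 in adult cells on wild-type sections and at 0.04, 0.06 and 0.08 on APdE9 sections. It rose by 1.15 ± 0.10 (adjusted p = 8.58e-06), beside Lipa at 1.00 ± 0.11 (adjusted p = 4.39e-05) and Npc1, which exports cholesterol from lysosomes, at 0.52 ± 0.08 (adjusted p = 0.000647). The section effects of Nceh1 and Lipa differed between ages, by 0.95 and 0.80 (adjusted p = 0.00131 and 0.00527). Stard4, a carrier of cholesterol inside the cell, fell by 1.15 in neonatal and by 1.09 in adult cells (adjusted p = 0.00511 and 0.00135). Of 18 genes of cholesterol synthesis 13 were lower in neonatal and 17 in adult cells on APdE9 sections and none was higher, with medians of -0.68 and -1.03. Hmgcs1, an early enzyme of that route, was at 0.88, 1.50 and 1.11 in adult cells on wild-type sections and at -0.62, -0.49 and -0.44 on APdE9 sections. For a difference between ages in the section effect 0 of the 18 passed in limma (5 at an unadjusted p under 0.05).

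Of 11 liver X receptors, partner receptors and targets outside the 10 genes, 2 were higher and 3 lower in adult cells on APdE9 sections, and 3 were lower in neonatal cells. Nr1h3, which encodes liver X receptor alpha, was at -0.28 and -0.08 for the section (adjusted p = 0.226 and 0.658) and lower in adult than in neonatal cells on wild-type sections (-0.78 ± 0.11, adjusted p = 0.000132). Rxrb and Smpdl3a were the genes that rose, by 0.57 and 0.52, and Lpcat3, which remodels phospholipids, fell by 0.77 in adult cells. Srebf1, the regulator of fatty acid synthesis, had section effects that differed between ages by 0.89 ± 0.18 (adjusted p = 0.00739).

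**Figure D5:**
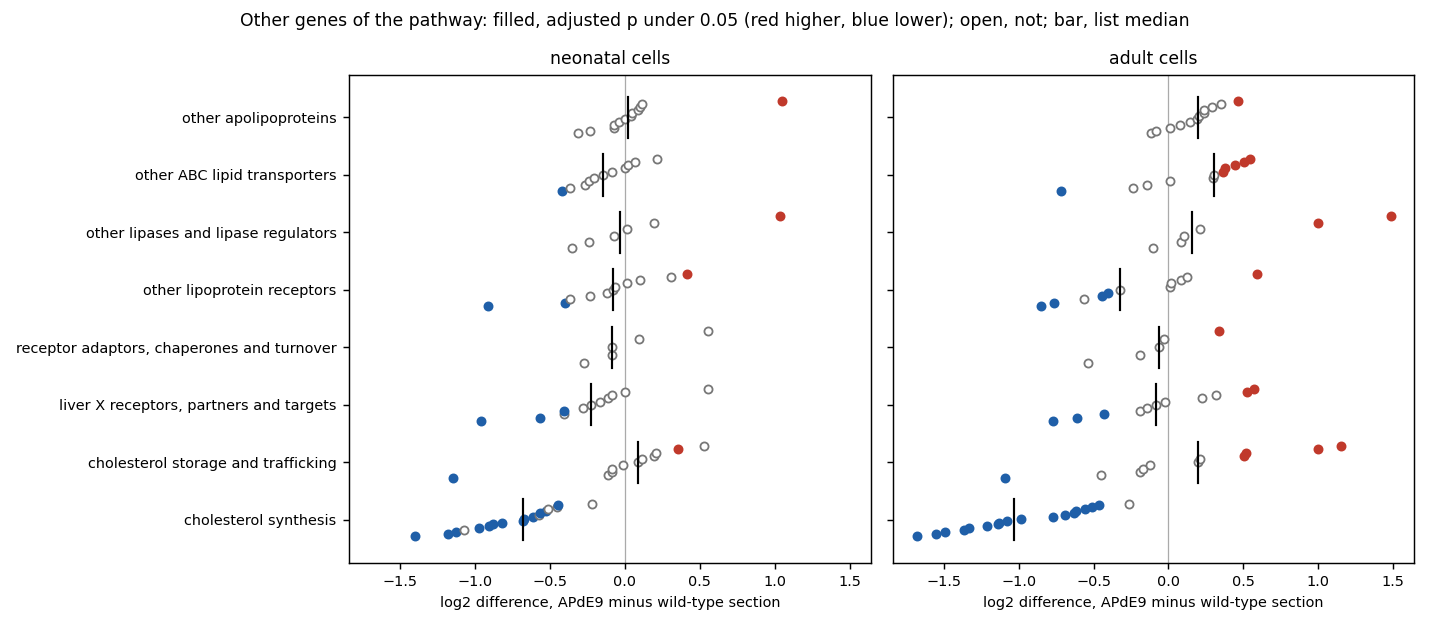
Log2 difference between APdE9 and wild-type sections (horizontal axes) for the genes of 8 pathway lists (vertical axis) in neonatal (left) and adult cells (right); each point is a gene, filled where its adjusted p was under 0.05, and the vertical bar is the list median. The cholesterol synthesis genes lie below 0 in both panels, with medians of -0.68 and -1.03.

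The genes whose values over the 12 arrays were most like those of Apoe, among 16437 genes ranked by Pearson's r, were H2-K1 (0.998), Fmod (0.997), Atp6v0e2 (0.996), Ecrg4 (0.993) and Scarb2 (0.993). The arrays fall into 4 groups, so these coefficients mostly describe the order of the 4 group means and carry no test. Fmod, which encodes the matrix protein fibromodulin, had group means of 1.00, 0.73, -2.72 and -0.72 in the order used above for Apoe. H2-K1, an MHC class I heavy chain, had 0.61, 0.56, -1.90 and -0.53. Scarb2, a membrane protein of lysosomes, showed the same order over a smaller range, from 0.23 to -0.78.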

How the data were processed

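The authors computed the deposited signals with RMA, per the submitters' processing notes (no version given), and the deposited columns were read as log2 values, centred per probe set (median 0 within 1e-06 in 45095 of 45095 complete probe sets). The deposited columns of 4 arrays were recorded as a score, because 6 of their values seem to have lost a decimal point; these were set to missing (absolute value above 100), none of them in the 26 probe sets described. Of 45101 probe sets, 64 controls were left out; 34945 had 1 gene in the annotation, 932 several and 9160 none. Gene values are means over single-gene probe sets (34741 matched to RefSeq). A model of 4 group means was fitted with limma 3.58.1 in R 4.3.3 (residual degrees of freedom 8), with Benjamini-Hochberg adjustment over 18193 genes or 45037 probe sets. It was run on simulated data with log2 changes of 0.5 among others. Of these, 53.7% were recovered for the section in neonatal cells, 52.2% in adult cells and 19.4% for the difference of section effects. A gene that was not called may therefore still differ. The 10 genes, the lists and the tests were chosen with earlier results of these data known. Beside the 10 genes, the text names list genes by a rule (up to 3 called genes with the largest difference per pathway list, up to 2 per marker list, in each direction and comparison) and, a choice made after seeing the data, only where the call held in all 12 fits without 1 array or the array that ends it is given; genes named without a call are given as values. Alternatives were array weights, quantile normalization, centring on array medians, a replicate block, subsets of arrays and probe sets, other thresholds and leaving out each array. The sample labels state no pairing. Replicate numbers were taken to pair the samples where each correlation of deviations passed 0.1: they did for the section in neonatal cells (0.305, 0.147 and 0.519) and age on APdE9 sections (0.460, 0.206 and 0.473). They did not for the section in adult cells or age on wild-type sections, yet the block covered all 12 arrays. The number of arrays limits the precision.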

Additional observations from a re-analysis of the deposited data

Results flagged for a closer look

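The effect of the section differed between neonatal and adult cells for 6 of the 10 genes, beside 10.1% of all genes, by a test of the difference itself in limma. The difference (adult minus neonatal) was 2.18 for Apoe, 1.24 for Lcat, 0.88 for Apod, 0.58 for Pltp, 0.54 for Clu and -0.85 for Vldlr, with adjusted p of 2.62e-06, 0.000192, 0.0224, 0.0408, 0.0316 and 0.0067 in that order. Those of Apoe, Lcat and Vldlr passed in each of the 12 fits without 1 array. That of Vldlr ended with the median of its probe sets (-0.57, adjusted p = 0.0875). It also ended without probe sets ending in _s_at, _x_at or _a_at (-0.43, adjusted p = 0.159), and 2 of its 6 probe sets passed. The cause of these differences was not tested.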

How the results depend on the processing

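Of the 10 genes, 6 were called for the difference of the section effects. This count fell to 3 with quantile normalization, with only the arrays numbered 1 and 2 and at a threshold of 0.01. It also fell to 3 without probe sets ending in _s_at, _x_at or _a_at, which left 8 genes, with Apoe and Clu not among them. With 1 array left out it was 3 to 5. The count of 7 in adult cells fell to 4 with quantile normalization, without those suffixes and at 0.01, and was 4 to 7 with 1 array left out. Apoe and Clu were among the 6 and the 7, so without those suffixes both were unmeasured rather than not called. The count of 3 in neonatal cells fell to 1 with only arrays 1 and 2 and at 0.01, and was 1 to 3 with 1 array left out. The age counts of 9 stayed at 9 on wild-type sections and 7 to 9 on APdE9 sections with 1 array left out. The replicate block, with pairing taken from the numbers, gave 4, 8, 6, 9 and 9 for the section in neonatal cells, in adult cells, their difference, and age on each section; it added Apod in neonatal cells and Abcg1 in adult cells (adjusted p = 0.0354), where the numbers do not pair (0.348, -0.147 and 0.496), and changed no other call of the 10 genes. With array weights Abcg1 in adult cells (0.49, adjusted p = 0.0479) and Apod in neonatal cells (0.40, adjusted p = 0.0399) also passed. Among values that passed under no setting, the sign turned for age in Abca1 on wild-type sections without adult wild-type array 1 (-0.0026 to 0.20 over the fits without 1 array), and for the Lpl difference of section effects with array weights (-0.058) and without neonatal wild-type array 1 (-0.0053 to 0.44). For Lrp8 that difference turned with the median of probe sets (-0.15), without the suffixes (-0.079), and in fits without neonatal wild-type array 1 or 2, neonatal APdE9 array 2, adult wild-type array 1 or adult APdE9 array 1 (-0.078 to 0.16 over all 12). Alternatives for single Vldlr probe sets were chosen after seeing the data. With 1 array left out, 1451156_s_at in neonatal cells ran from -0.0082 to 0.10, and in adult cells 1438258_at ran from -0.19 to 0.033 and 1442169_at from -0.17 to 0.016. The cause of these changes was not tested. Scaling moved the median of all genes by under 0.1, but single genes moved more. Under quantile normalization Clu in adult cells went from 0.42 to 0.09. Without levels, no filter on dim probe sets was possible.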
